A study of Homo sapiens with 6 samples.

Results

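The genes described here encode parts of the spliceosome and the proteins that regulate it: subunits of the U1, U2 and tri-snRNP particles, the Prp19 complex, the serine/arginine-rich (SR) proteins, the hnRNP proteins, RBM regulators, and the kinases that phosphorylate SR proteins. The list held 47 genes and was applied to every probe set annotated with 1 of these symbols alone, 162 on the array. Of these, 118 probe sets of 46 genes had a highest signal on the 6 arrays above 6.64 on the log2 scale (a signal of 100), among 16397 of 54675 probe sets above that limit in all. The 44 below the limit were left out. Just inside it were probe sets of TRA2A (highest signal 6.68), SRPK2 (6.78) and SRPK1 (6.83), and just outside it were others of SRPK2 (6.49), HNRNPU (6.27) and SF3A2 (6.19). SRSF2 was the gene not read alone, since its probe sets also carried the symbol of a microRNA.

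The RNA came from KHOS and U-2OS, both established human osteosarcoma cell lines, so each line stands for 1 tumour model. In each line there was 1 array of cells transfected with CDK11 siRNA, 1 of cells transfected with nonspecific siRNA and 1 of untransfected cells. Both siRNAs were given at 40 nM for 48 h, the CDK11 siRNA is directed at the coding region of the transcript, and each array held the pooled RNA of 3 flasks, so that the spread between flasks was not measured. Whole cultures were read, so a lower signal in every cell and its loss from some cells cannot be told apart. With 1 array per line and transfection, a difference within a line has no replicate check, and 6 arrays in all limit what can be resolved. Between 24.8% and 25.9% of the probe sets of an array lay above the limit. All 5 probe sets that share the symbols CDK11A and CDK11B had a lower signal with CDK11 siRNA in both lines. The 2 above the limit differed from nonspecific siRNA by -2.28 and -2.32 in KHOS and by -2.65 and -2.76 in U-2OS on the log2 scale. Of the 8 osteoblast markers on the array, RUNX2, SPARC and COL1A1 were above the limit in both lines, while ALPL, COL1A2, IBSP, SP7 and SPP1 were not. None of 4 blood cell markers was above it. Of 6 epithelial markers, 3 were in KHOS and 2 in U-2OS, among them KRT8 and KRT18 in both.

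Splicing removes introns from pre-mRNA. U1 snRNP recognises the 5' splice site, U2AF and U2 snRNP recognise the 3' splice site and the branch point, and the tri-snRNP and the Prp19 complex then join to build the catalytic machine. SR proteins mostly favour the use of nearby exons, hnRNP proteins often repress them, and the CLK and SRPK kinases set the phosphorylation of SR proteins. CDK11, a kinase that works with cyclin L, is known to bind splicing factors and to phosphorylate SF3B1 of U2 snRNP. Many genes of splicing regulators produce several transcript forms. A probe set reads only a short stretch of a gene, and the signals of different probe sets are not amounts of RNA that can be set against each other.

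The first comparison asks how the RNA of these genes differed when CDK11 was depleted. No member probe set lay beyond 3 SD of the differences between CDK11 siRNA and nonspecific siRNA in KHOS, where the bounds were -1.35 and 1.35 and 1.38% of all probe sets above the limit lay outside them. None did in U-2OS either, where the bounds were -1.07 and 1.12 and the share of all probe sets was 1.87%. The most extreme members had z-scores of 2.95 in KHOS (SRSF11) and -2.77 in U-2OS (SRSF6). With both lines together, the differences were tested with limma, with cell line as a block and Benjamini-Hochberg adjustment over all 16397 probe sets. It called 0 of the 118 members and 0% of all probe sets, so the test separated no probe set from the rest. The smallest adjusted p of a member was 0.167. At an unadjusted p under 0.05, 14 members (11.9%) passed, 10 of them higher and 4 lower with CDK11 siRNA, against 14.3% of all probe sets.

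Splicing genes as a list stayed close to the middle of the array. The members had a median log2 difference of 0.09 in KHOS. In U-2OS the value was 0.01, and over all probe sets it was 0.01 in each line. In KHOS 74 of the 118 members (62.7%) were above 0 and in U-2OS 65 (55.1%), against 51.9% and 52.7% of all. In both lines 101 members (85.6%) differed by at most 0.5, against 73.3% of all probe sets and 85.4% of the other splicing genes described below. The members were brighter than the array as a whole. At a mean log2 signal of 11 or more were 45 of the 118, against 2589 of 16397. Over all probe sets the median size of the KHOS difference was 0.13 at that level and 0.29 under 8. The differences of the 2 lines correlated over the 118 members with a Pearson's r of 0.655 and a Spearman's rho of 0.507. Over all probe sets they were 0.45 and 0.432, and over the other splicing genes 0.634 and 0.562. Probe sets of a gene share transcripts and all points share the same 4 arrays, so these are descriptions.

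Higher with CDK11 siRNA by over 0.5 in both lines were 5 members (4.24%, against 2.52% of all probe sets), 1 each of HNRNPD, SRSF11, TRA2A, HNRNPA1 and RBM39. Lower by over 0.5 in both lines were 2 members (1.69%, against 2.81% of all), 1 each of SRSF6 and SF3B2. None of the 7 passed the limma test. In 6 of the 7 genes there were other probe sets above the limit, which differed less or the other way. SF3B2 had only 1. The 5 higher members included TRA2A 213593_s_at, which passed the limit through the KHOS CDK11 siRNA array alone, and RBM39 226404_at, which was below the limit on every U-2OS array. With only probe sets above the limit on all 6 arrays, 1 of 99 members was higher (1.01%, against 1.4% of all), HNRNPD 213359_at, and 2 were lower (2.02%, against 1.87%). Taking 1 probe set per gene, the brightest, left 0 higher.

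**Figure D1:**
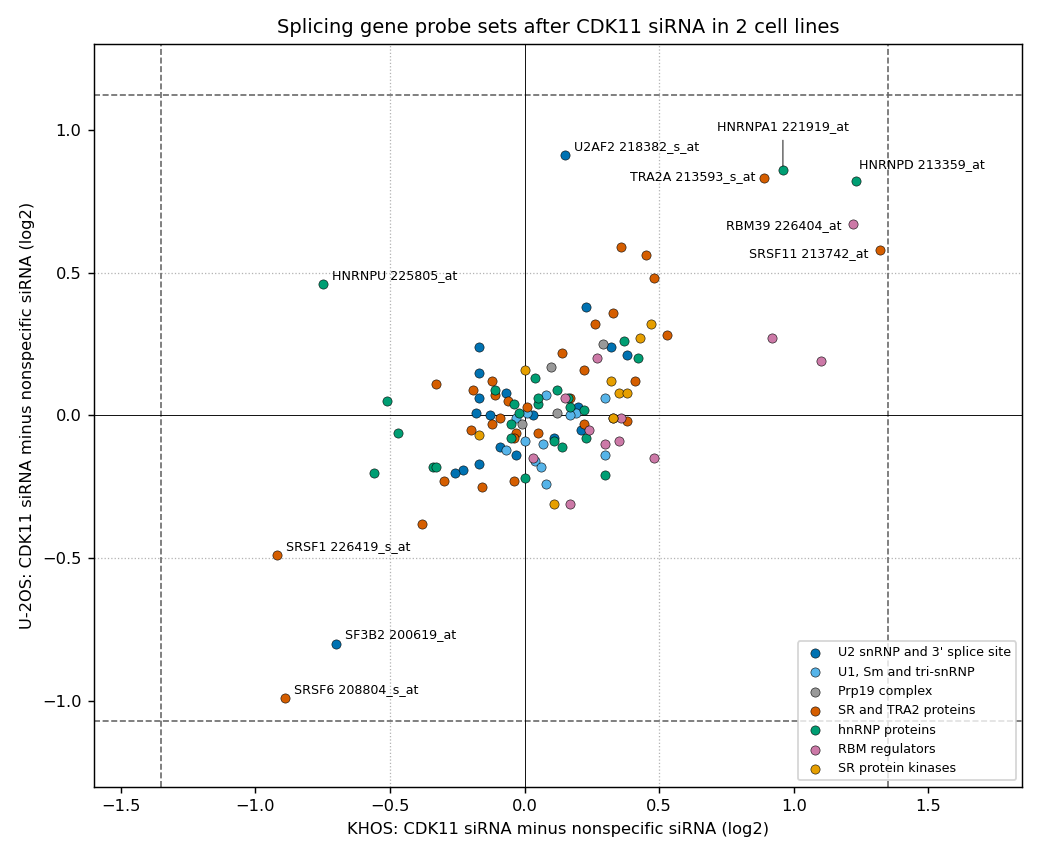
Log2 difference of CDK11 siRNA minus nonspecific siRNA in KHOS (x axis) and in U-2OS (y axis) for the 118 probe sets of splicing genes, 1 point each, coloured by role. Dashed lines mark 3 SD of all probe sets and dotted lines 0.5. No point lies outside the dashed lines, 5 lie above 0.5 and 2 below -0.5 in both lines.

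Among the U2 snRNP and 3' splice site genes, 20 probe sets of 10 genes centred on a difference of -0.08 in KHOS and of 0.01 in U-2OS (medians). SF3B2 encodes a subunit of SF3b, the part of U2 snRNP that holds the branch point. Its probe set 200619_at had log2 signals of 10.50 with CDK11 siRNA, 11.19 with nonspecific siRNA and 11.01 untransfected in KHOS, and of 9.89, 10.69 and 10.71 in U-2OS in the same sequence. The CDK11 siRNA array was the lowest of the 3 in each line. The signal was 61.6% of that with nonspecific siRNA in KHOS and 57.5% in U-2OS, and the mean log2 difference was -0.75 (SE 0.13, limma adjusted p = 0.183).

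SF3B1, the SF3b subunit named above as a CDK11 substrate, had 5 probe sets, whose differences ran from -0.17 to 0.11 in KHOS and from -0.08 to 0.24 in U-2OS. Its 211185_s_at gave the highest signals of the group, 13.67 with CDK11 siRNA, 13.56 with nonspecific siRNA and 13.63 untransfected in KHOS. SF3A2, another U2 snRNP subunit, was read by 37462_i_at alone, with 7.42, 7.04 and 6.96 in KHOS, then 6.95, 6.74 and 6.44 in U-2OS in that sequence. U2AF2 encodes the large U2AF subunit, which binds the pyrimidine-rich tract before the 3' splice site, and is named here after its values were seen. Its 218382_s_at read 6.63 with CDK11 siRNA and 5.72 with nonspecific siRNA in U-2OS, a difference of 0.91, but 6.80 untransfected. The array with nonspecific siRNA was thus the odd one of the 3, and the other probe set of the gene, 218381_s_at, differed by -0.05 between the siRNAs.

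The U1, Sm and tri-snRNP genes had the narrowest spread of differences of the 7 groups in both lines (SD 0.12 in KHOS and 0.10 in U-2OS, over probe sets). All 13 probe sets of 9 genes lay within 0.5 in both lines, with a range of -0.07 to 0.30 in KHOS and of -0.24 to 0.07 in U-2OS. SNRPD1, an Sm protein of the ring around each spliceosomal snRNA, had the highest signals of the group (202690_s_at, 13.29 with CDK11 siRNA, 13.12 with nonspecific siRNA and 13.41 untransfected in KHOS, 13.78, 13.77 and 13.74 in U-2OS). SNRNP200 encodes the helicase that unwinds U4 from U6. Its 232931_at read 6.77 with CDK11 siRNA, 6.84 with nonspecific siRNA and 6.87 untransfected in KHOS. Of the Prp19 complex, CDC5L had 3 probe sets with differences of 0.10 to 0.29 in KHOS and 0.01 to 0.25 in U-2OS. PRPF19, its ubiquitin ligase, differed by -0.01 and -0.03.

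Among the SR and TRA2 proteins, 32 probe sets of 10 genes had medians of -0.01 (KHOS) and 0.05 (U-2OS), and included some of the most different members. SRSF6 encodes an SR protein of splicing activation and exon choice. Its 208804_s_at read 11.24 with CDK11 siRNA, 12.13 with nonspecific siRNA and 12.15 untransfected in KHOS, and 9.15, 10.14 and 10.47 in U-2OS. CDK11 siRNA was the lowest array in each line, with 54% of the signal of nonspecific siRNA left in KHOS and 50.3% in U-2OS. The mean log2 difference was -0.94 (SE 0.15, limma adjusted p = 0.173) against nonspecific siRNA and -1.11 (adjusted p = 0.101) against untransfected cells. The other probe set of SRSF6, 206108_s_at, did not follow it. It read 10.26 with CDK11 siRNA, 9.86 with nonspecific siRNA and 9.76 untransfected in KHOS, and 10.39, 10.27 and 10.31 in U-2OS, so that CDK11 siRNA was the highest array in each line, by 0.41 and 0.12 over nonspecific siRNA.

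SRSF11 encodes an SR protein of the interchromatin granules that binds U2AF. Its 213742_at read 7.60 with CDK11 siRNA, 6.28 with nonspecific siRNA and 6.33 untransfected in KHOS, and 7.57, 6.99 and 6.75 in U-2OS. In KHOS the probe set was above the limit only with CDK11 siRNA, and in U-2OS it was at 149% of the nonspecific siRNA signal. The mean log2 difference was 0.95 (SE 0.21, limma adjusted p = 0.219). The remaining probe sets of SRSF11 differed by -0.04 and 0.38 in KHOS and by -0.23 and -0.02 in U-2OS. The brighter of them, 200686_s_at, read 13.07 with CDK11 siRNA and 12.69 with nonspecific siRNA in KHOS.

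TRA2A and TRA2B are paralogs that bind purine-rich exon enhancers. TRA2A 213593_s_at read 6.68 with CDK11 siRNA, 5.80 with nonspecific siRNA and 5.86 untransfected in KHOS, and 5.18, 4.34 and 4.04 in U-2OS. It was the member nearest to the signal limit, passed it on the CDK11 siRNA array of KHOS alone, and lay below it on all 3 U-2OS arrays. Its mean difference was 0.86 (SE 0.15, limma adjusted p = 0.173). TRA2A 229574_at differed by 0.45 in KHOS and 0.56 in U-2OS, and 204658_at, the brightest, by -0.03 and -0.06. The 3 probe sets of TRA2B lay between -0.19 and 0.09 in both lines.

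SRSF1, the first described SR protein, had 5 probe sets, of which 211784_s_at gave the highest signals of the group (14.43 with CDK11 siRNA, 14.55 with nonspecific siRNA and 14.70 untransfected in KHOS). Its 226419_s_at, named after its values were seen, read 7.60, 8.52 and 8.53 in KHOS, then 9.10, 9.59 and 9.55 in U-2OS in that sequence, lowest with CDK11 siRNA in both lines. The U-2OS difference of -0.49 left it just short of 0.5, and its mean was -0.70 (SE 0.17, limma adjusted p = 0.236). The remaining SRSF1 probe sets ranged from -0.16 to 0.05 in KHOS and from -0.25 to 0.12 in U-2OS. SRSF3 and SRSF7 are a close pair that also act in mRNA export. The 4 SRSF3 probe sets differed by 0.17 to 0.48 in KHOS and 0.06 to 0.59 in U-2OS, and the 3 of SRSF7 by -0.33 to 0.26 and by -0.01 to 0.32. SRSF4 had the lowest mean signal of the SR proteins by its brighter probe set, 201696_at. That probe set read 10.24 with CDK11 siRNA, 9.72 with nonspecific siRNA and 9.72 untransfected in KHOS, and 9.96, 9.68 and 9.80 in U-2OS.

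**Figure D2:**
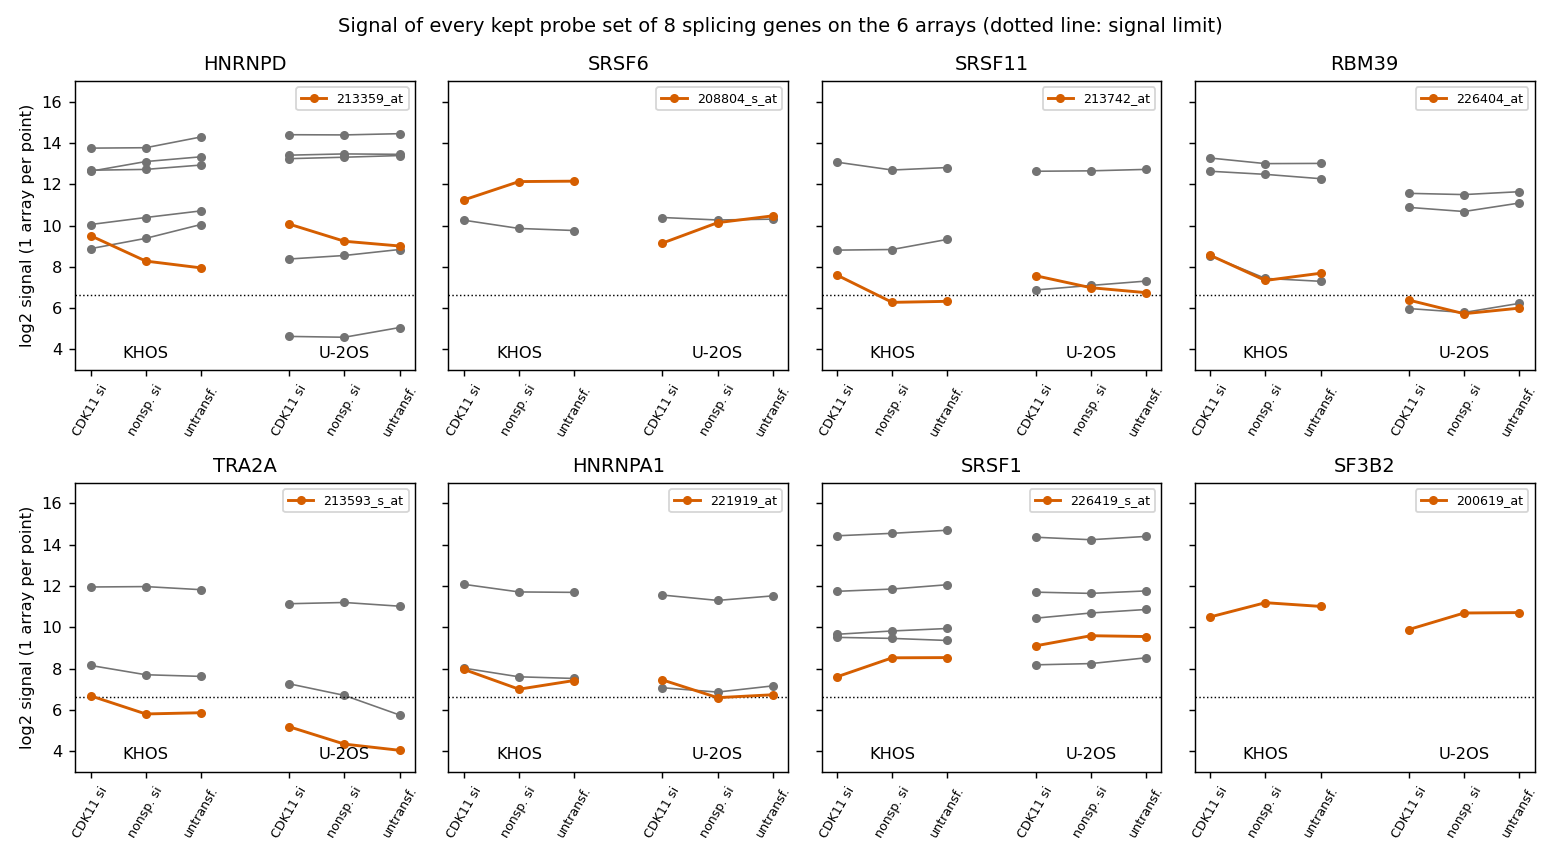
Log2 signal of every probe set above the limit of 8 splicing genes, 1 array per point, with CDK11 siRNA, nonspecific siRNA and untransfected cells from left to right in KHOS and then in U-2OS. The probe set described in the text is orange, the others are grey, and the dotted line is the limit of 6.64. HNRNPD 213359_at is highest with CDK11 siRNA (9.51 in KHOS, 10.07 in U-2OS) while no other HNRNPD probe set is higher with CDK11 siRNA than in untransfected cells, and SRSF6 208804_s_at is lowest (11.24 and 9.15).

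The 27 probe sets of 8 hnRNP genes had medians of 0.05 (KHOS) and 0.03 (U-2OS). HNRNPD (AUF1) binds AU-rich elements and is best known for its part in mRNA decay. Its 213359_at read 9.51 with CDK11 siRNA, 8.28 with nonspecific siRNA and 7.95 untransfected in KHOS, and 10.07, 9.24 and 9.01 in U-2OS. CDK11 siRNA was the highest array in each line, at 235% of nonspecific siRNA in KHOS and 177% in U-2OS. The mean log2 difference was 1.03 (SE 0.17, limma adjusted p = 0.173) against nonspecific siRNA and 1.31 (adjusted p = 0.100) against untransfected cells.

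The other 5 probe sets of HNRNPD differed by -0.51 to -0.02 in KHOS and by -0.18 to 0.05 in U-2OS, so none of them was higher in KHOS. The brightest, 200073_s_at, read 13.75 with CDK11 siRNA, 13.77 with nonspecific siRNA and 14.29 untransfected in KHOS, and 14.40, 14.39 and 14.45 in U-2OS. HNRNPA1 encodes an abundant repressor of exon inclusion. Its 221919_at read 7.96 with CDK11 siRNA, 7.0 with nonspecific siRNA and 7.42 untransfected in KHOS, and 7.45, 6.59 and 6.73 in U-2OS, with CDK11 siRNA highest in each line (mean difference 0.91, SE 0.13, limma adjusted p = 0.167). Its 222040_at and 214280_x_at differed by 0.42 and 0.37 in KHOS and by 0.20 and 0.26 in U-2OS. A further 2 probe sets carry HNRNPA1 together with copies of the gene and were not counted, and the signal of such copies cannot be told apart.

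HNRNPU, named after its values were seen, encodes a nuclear scaffold protein that binds RNA. In KHOS all 3 of its probe sets were lower with CDK11 siRNA, by 0.33, 0.56 and 0.75 on the log2 scale. In U-2OS 2 were lower, by 0.18 and 0.20, and 225805_at was higher by 0.46. That probe set read 8.15 with CDK11 siRNA, 8.90 with nonspecific siRNA and 9.11 untransfected in KHOS, and 6.54, 6.08 and 7.14 in U-2OS. Compared with untransfected cells it was lower in both lines, by 0.96 and 0.60 on the log2 scale, so the direction in U-2OS depended on the control. HNRNPA2B1 had the highest signals of the group (205292_s_at, 15.35 with CDK11 siRNA, 15.39 with nonspecific siRNA and 15.54 untransfected in KHOS).

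The RBM regulators were the group with the most one-sided KHOS differences. All 13 probe sets were above 0 in KHOS, with a median of 0.33, while 5 of the 13 were in U-2OS, with a median of -0.01. Of these 13, 7 belong to RBM25 and 4 to RBM39, so they are not independent. RBM39 encodes a U2AF-related protein that also acts as a transcriptional coactivator. Its 226404_at read 8.56 with CDK11 siRNA, 7.34 with nonspecific siRNA and 7.69 untransfected in KHOS, and 6.39, 5.73 and 6.0 in U-2OS, where all 3 values were below the limit. In that sequence its 227223_at read 8.54, 7.44 and 7.30 in KHOS, then 5.98, 5.79 and 6.23 in U-2OS, so it was highest with CDK11 siRNA in KHOS but not in U-2OS. The brighter probe sets of RBM39 differed by 0.15 and 0.27 in KHOS and by 0.06 and 0.20 in U-2OS. The mean difference of 226404_at was 0.94 (SE 0.18, limma adjusted p = 0.194). RBM25, named after its values were seen, influences the choice of 5' splice sites and had differences of 0.17 to 0.92 in KHOS and of -0.31 to 0.27 in U-2OS. RBM5, a regulator of the splicing of apoptosis genes, had the lowest signals of these genes by its brighter probe set, 201395_at (10.12 with CDK11 siRNA, 10.09 with nonspecific siRNA and 9.74 untransfected in KHOS).

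The 9 probe sets of the SR protein kinases all lay within 0.5 in both lines, with medians of 0.33 (KHOS) and 0.08 (U-2OS). CLK1 and CLK4 are nuclear paralogs. CLK1 214683_s_at had the highest mean signal of the group, though not the highest signal on every array. It read 11.48 with CDK11 siRNA, 11.13 with nonspecific siRNA and 10.79 untransfected in KHOS, and 10.30, 10.23 and 9.79 in U-2OS, highest with CDK11 siRNA in both. CLK4 differed by 0.11 and 0.33 in KHOS and by -0.31 and -0.01 in U-2OS. Of the SRPK paralogs, which also act in the cytoplasm, the 4 SRPK2 probe sets differed by 0.32 to 0.47 in KHOS and by 0.08 to 0.32 in U-2OS, whereas the 2 of SRPK1 lay between -0.17 and 0.16.

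Probe sets of the same gene were then compared. Of the 46 genes, 34 had 2 or more probe sets above the limit. In KHOS the differences spanned over 1 log2 unit in 4 of the 34 (11.8%), against 6.77% of all genes with 2 or more: HNRNPD (1.74), SRSF11 (1.36), SRSF6 (1.3) and RBM39 (1.07). In U-2OS they did so in SRSF6 alone (1.11), which is 2.94%, against 5.76% of all genes. HNRNPD had a span of 1.0 there. Genes with more probe sets reach a wider span more easily. Among genes with 4 or more, 2 of 10 members (20%) did so in KHOS, against 18.3% of all such genes, and 0 of 10 in U-2OS, against 14%. Among genes with 2, it was 1 of 15 members (6.67%) in each line, against 3.8% in KHOS and 3.49% in U-2OS.

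**Figure D3:**
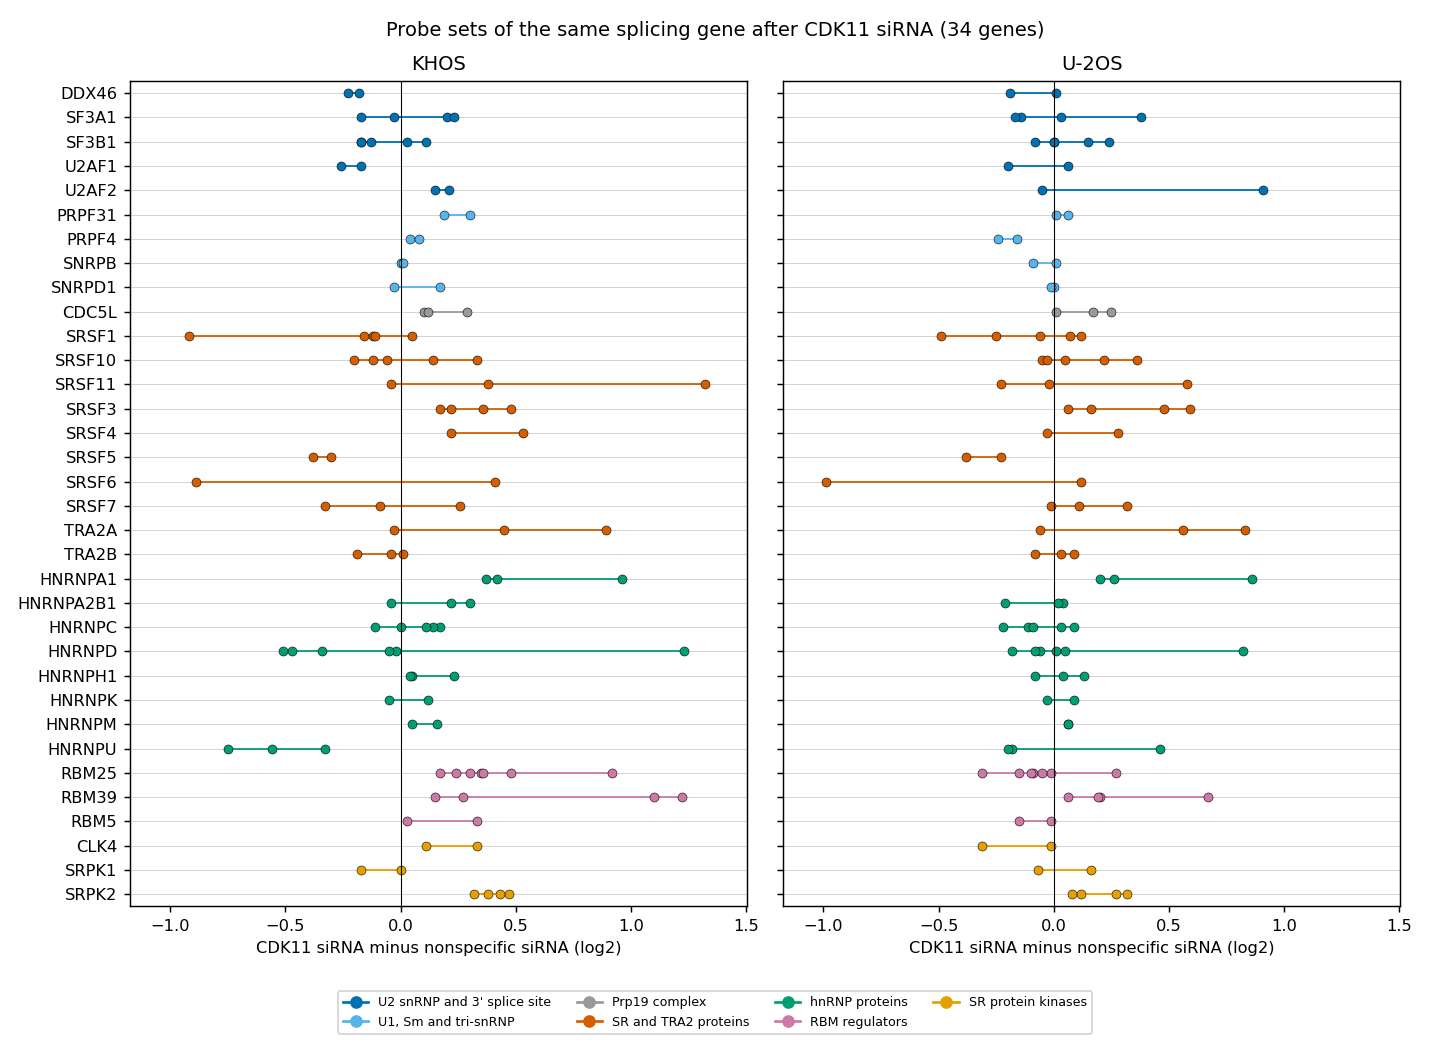
Log2 difference of CDK11 siRNA minus nonspecific siRNA of every probe set above the limit (points), joined by a line per gene, for the 34 splicing genes with 2 or more, in KHOS (left) and U-2OS (right). HNRNPD, SRSF11, SRSF6 and RBM39 span over 1 log2 unit in KHOS, and SRSF6 does in U-2OS.

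Differences were also set against the signal level. Of the 24 members with a mean log2 signal under 8, 4 (16.7%) differed by over 0.5 in the same direction in both lines, against 7.98% of all probe sets in that range. Of the 49 between 8 and 11 it was 3 (6.12%, against 4.14%), and of the 45 at 11 or more it was 0 (against 1.93%). Where a gene had several probe sets, the median size of the difference was 0.17 for the brightest and 0.24 for the dimmest in KHOS, and 0.07 and 0.18 in U-2OS. Over all genes the brightest and the dimmest had 0.20 and 0.25 in KHOS, then 0.14 and 0.20 in U-2OS. The dimmest had the larger difference in 19 of 34 genes in KHOS (55.9%, against 57.2% of all genes) and in 24 in U-2OS (70.6%, against 59.5%). In SRSF6 the probe set with the larger difference, 208804_s_at, had the higher mean signal. The part of the signal level in these differences was not tested.

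The comparison was also made against untransfected cells, which shares the CDK11 siRNA arrays with the first. Limma called 0 of the 118 members and 0% of all probe sets, with a smallest adjusted p of 0.1 among the members. At an unadjusted p under 0.05, 28 members (23.7%) passed, 11 higher and 17 lower, against 19.3% of all. By over 0.5 in both lines 6 members were higher (5.08%, against 2.97% of all) and 5 lower (4.24%, against 4.48%). Against both controls, a count chosen after seeing the data, 4 members were higher (3.39%, against 0.781% of all), of HNRNPD, SRSF11, TRA2A and HNRNPA1, and 2 were lower (1.69%, against 1.78%), of SRSF6 and SF3B2. In KHOS the probe sets of SRSF11 and TRA2A were above the limit only with CDK11 siRNA. With only probe sets above the limit on all arrays, 1 member, of HNRNPD, was higher against both controls (1.01%, against 0.313% of all), and the same 2 were lower (2.02%, against 1.33%). RBM39 226404_at dropped out, since it was 0.87 higher in KHOS but 0.39 higher in U-2OS against untransfected cells.

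Transfection itself was read from nonspecific siRNA against untransfected cells. Limma called 0 members and 0% of all probe sets, and 10 members (8.47%) had an unadjusted p under 0.05, against 8.95% of all. No member was higher by over 0.5 in both lines (0.915% of all probe sets were) and 2 were lower (1.69%, against 1.81% of all), 225348_at of SRSF10, an SR protein that represses splicing when dephosphorylated, and 235324_at of SRSF3. SRSF3 235324_at read 7.08 with CDK11 siRNA, 6.72 with nonspecific siRNA and 7.38 untransfected in KHOS, and 5.24, 4.65 and 5.35 in U-2OS. The CDK11 siRNA value was therefore 0.36 and 0.59 above nonspecific siRNA, and 0.30 and 0.12 below untransfected cells.

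The limma result depended on how the spread was estimated. With a variance prior that follows the signal level, SRSF6 208804_s_at (adjusted p = 0.0198), HNRNPD 213359_at and SF3B2 200619_at (both 0.0325) passed against nonspecific siRNA, 3 of 118 members, against 1.29% of all probe sets.

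The largest differences of these genes were between the cell lines. Limma, with transfection as a block, called 82 of the 118 members (69.5%) between KHOS and U-2OS, 59 higher and 23 lower in KHOS, against 72.1% of all probe sets. By over 1 log2 unit 26 members (22%) were higher in KHOS, against 22.5% of all, and 2 (1.69%) were lower, against 16% of all. Of the 26, 8 were below the limit on every U-2OS array. The 2 lower ones were SRSF1 226419_s_at (-1.20, SE 0.14, adjusted p = 0.00126) and PRPF19 203103_s_at (-1.18, SE 0.11, adjusted p = 0.000753). PRPF19 read 9.65 with CDK11 siRNA, 9.66 with nonspecific siRNA and 9.80 untransfected in KHOS, and 10.92, 10.96 and 10.79 in U-2OS, so that the lines did not overlap.

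In some genes 1 probe set was higher in KHOS by far more than the others of the gene. DDX46, named after its values were seen, encodes a helicase that helps U2 snRNP engage the branch point. Its 228039_at read 9.24 with CDK11 siRNA, 9.42 with nonspecific siRNA and 9.87 untransfected in KHOS, and 5.05, 5.04 and 4.34 in U-2OS, where it was below the limit on every array. For such a probe set only a bound is given, the mean KHOS level against the limit, and here KHOS was at least 7.29-fold higher. The limma adjusted p given with such a bound (here 0.000206) belongs to the measured difference, and the bound itself was not tested. Its 202462_s_at was higher in KHOS by 1.19 (SE 0.10, adjusted p = 0.000498). HNRNPD 229129_at read 8.88, 9.38 and 10.05 in KHOS, then 4.63, 4.59 and 5.06 in U-2OS in that sequence, also below the limit. It was at least 6.94-fold higher in KHOS (limma adjusted p = 5.57e-05). HNRNPD 221480_at was higher in KHOS as well (1.79, SE 0.10, adjusted p = 0.000168), whereas 213359_at was lower (-0.86, SE 0.14, adjusted p = 0.00391). The remaining HNRNPD probe sets differed by -0.54 to -0.42. SF3B1 229303_at, below the limit on all 3 U-2OS arrays, was at least 4.91-fold higher in KHOS (limma adjusted p = 5.09e-05), beside the other 4 probe sets of SF3B1, which were higher in KHOS by 0.36 to 1.20.

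Both probe sets of CLK4 were higher in KHOS, and CLK4 was the kinase with the lowest signals by its brightest probe set. Its 210346_s_at read 9.55 with CDK11 siRNA, 9.22 with nonspecific siRNA and 8.88 untransfected in KHOS, and 7.16, 7.17 and 6.86 in U-2OS (2.15, SE 0.12, adjusted p = 0.000167). Its 228751_at was below the limit on every U-2OS array and at least 3.66-fold higher in KHOS (limma adjusted p = 9.14e-05). All 4 probe sets of RBM39 were higher in KHOS as well, 226404_at and 227223_at by at least 2.33-fold and 2.16-fold, since both were below the limit on the U-2OS arrays. SRSF6 208804_s_at was higher in KHOS by 1.92 and 206108_s_at lower by 0.36, so the 2 SRSF6 probe sets disagreed between lines as they did between transfections. In all, the line differences spanned over 2 log2 units in 7 of 34 genes (HNRNPD, DDX46, SF3B1, HNRNPU, SRSF1, SRSF6 and SRSF11), against 11.4% of all genes with 2 or more probe sets. In DDX46 and SF3B1 the span rested on the probe set below the limit in U-2OS. With only probe sets above the limit on at least 1 array of each line, a setting chosen after seeing the data, 5 of 29 genes spanned over 2 (17.2%, against 5.27% of 2750 genes), and these were HNRNPD, HNRNPU, SRSF1, SRSF6 and SRSF11. HNRNPU counted there through 225805_at, which in U-2OS was above the limit in untransfected cells alone. The line spans were not split by the number of probe sets. Genes with 4 or more were 10 of the 34 members, against 442 of 3576 in all, so the 2 sides of these shares are unlike. On all 3 U-2OS arrays 11 members were below the limit, and on all 3 KHOS arrays 1 was.

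**Figure D4:**
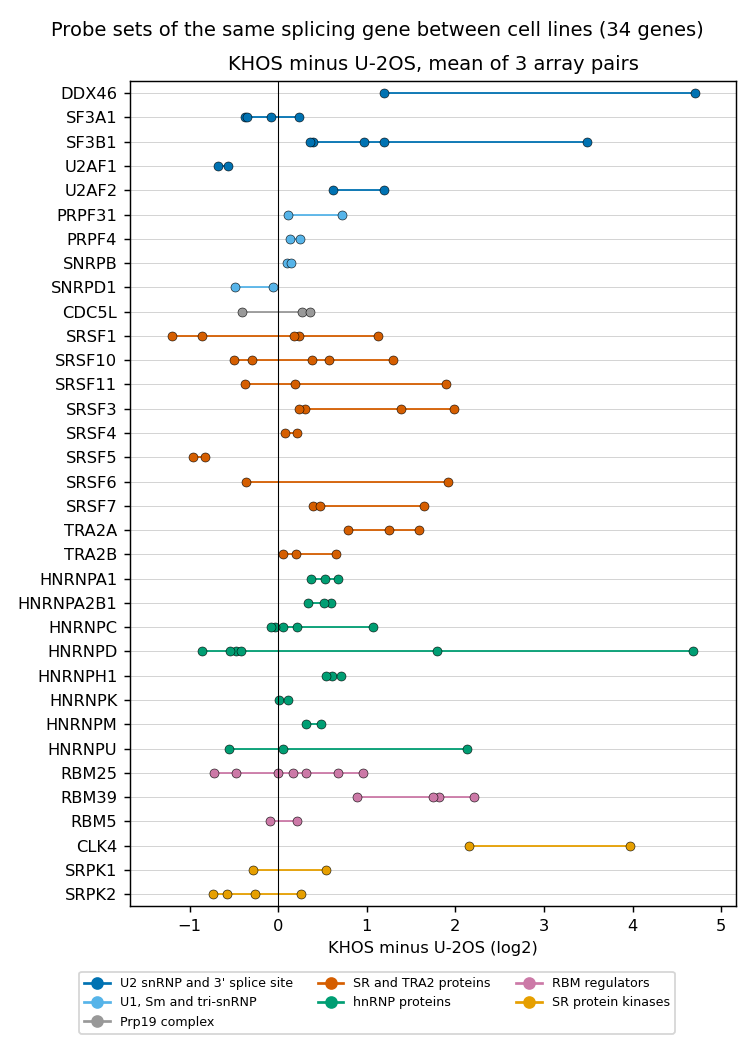
Log2 difference of KHOS minus U-2OS, as the mean over the 3 transfections, of every probe set above the limit (points), joined by a line per gene, for the 34 splicing genes with 2 or more. HNRNPD runs from -0.86 to 4.68 and DDX46 from 1.19 to 4.70, and the upper point of each is a probe set below the limit on every U-2OS array, whose measured difference is drawn.

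Of 120 further splicing genes, in 7 lists of other snRNP proteins, Prp19 complex and catalytic factors, early recognition factors, minor spliceosome, exon junction complex, other SR and hnRNP proteins, and other regulators and kinases, 104 had 205 probe sets above the limit. Limma called 0 of the 205 against nonspecific siRNA, and 22 (10.7%, against 14.3% of all probe sets) had an unadjusted p under 0.05, 11 higher and 11 lower. Their differences had medians of 0.05 (KHOS) and 0.02 (U-2OS), and 4 (1.95%, against 2.52% of all) were higher and 5 (2.44%, against 2.81%) lower by over 0.5 in both lines. Beyond 3 SD lay 2 in KHOS (0.976%, against 1.38% of all) and 4 in U-2OS (1.95%, against 1.87%). RBFOX2, which binds the GCAUG element near regulated exons, was lower beyond 3 SD in both lines by 216215_s_at, which read 7.74 with CDK11 siRNA, 9.25 with nonspecific siRNA and 8.83 untransfected in KHOS, and 7.32, 8.86 and 9.01 in U-2OS. Its other 2 probe sets differed by -0.22 and -0.15 in KHOS and by 0.02 and -0.09 in U-2OS. HNRNPA3 211929_at, of a relative of HNRNPA1, was lower beyond 3 SD in KHOS (-1.45) and differed by -0.95 in U-2OS. Higher beyond 3 SD in U-2OS were HNRNPDL 209068_at (1.16), of a paralog of HNRNPD, MBNL1 1558111_at (1.25), of a muscleblind splicing regulator, and QKI 212636_at (1.18), of a STAR family regulator. Other probe sets of these genes differed less in U-2OS, by -0.02 to 0.31 for HNRNPDL, 0.05 to 0.66 for MBNL1 and 0.15 to 0.32 for QKI. MBNL1 1558111_at was below the limit on every U-2OS array (4.98 with CDK11 siRNA, 3.73 with nonspecific siRNA and 4.62 untransfected). Against untransfected U-2OS cells it was higher by 0.36 and QKI 212636_at by 0.35. HNRNPDL 209068_at read 6.28 with CDK11 siRNA, 5.12 with nonspecific siRNA and 7.28 untransfected in U-2OS, so it was also lower than untransfected by 1.01 on the log2 scale.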

How the data were processed

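RNA of KHOS and U-2OS cells was hybridised to Affymetrix U133 Plus 2.0 arrays, 1 array per line and transfection. The values are log2 signals that the authors computed with gcrma (background correction, quantile normalization across arrays, and 1 summary per probe set) and deposited. Their present and absent calls were not used. Probe sets were kept if at least 1 of the 6 arrays exceeded 6.64. Genes were named from the platform annotation, updated through RefSeq gene IDs (assembly GRCh38.p14, used for names only), and probe sets with several symbols were not counted as members. No sequences of probe sets or proteins were used here.

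Probe sets were not averaged. Differences (CDK11 siRNA minus nonspecific siRNA) were turned into z-scores within each line, over everything above the limit, and those beyond 3 were counted, the threshold of the study's methods. With limma 3.58.1 (R 4.3.3) a model was fitted to each of the 16397 kept probe sets over all 6 arrays, with transfection and cell line as terms, 2 residual degrees of freedom and two-sided Benjamini-Hochberg adjustment at 0.05. The lines thus stand in as replicates of a transfection. The script was tested on simulated arrays. Other steps ran in Python 3.11.15 with numpy 2.4.6, pandas 2.3.3 and matplotlib 3.10.9.

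The members and lists were chosen with earlier results of these data known. Named were members beyond 3 SD in a line, past limma against either control, beyond 0.5 in the same direction in both lines, or with probe sets spanning over 1 log2 unit in a line, the brightest and the dimmest gene of each group (by its brightest probe set), 4 pairs of paralogs, and other splicing genes past limma or, with none, beyond 3 SD. Others are named as stated. Alternatives covered the filter, the normalization, the control, the thresholds, the choice of probe set, and the variance prior, block and arrays of limma.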

Additional observations from a re-analysis of the deposited data

Results flagged for a closer look

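HNRNPU 225805_at differed in opposite directions between the lines, by -0.75 in KHOS and 0.46 in U-2OS (CDK11 siRNA minus nonspecific siRNA, log2). With 1 array per group, this opposition was not tested. Against untransfected cells both values were negative, -0.96 and -0.60. It was the only one of the 118 members that differed by over 0.3 in opposite directions, against 2.13% of all probe sets.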

How the results depend on the processing

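Limits. With 1 array per group and 2 residual degrees of freedom, the limma counts of 0 rest on few degrees of freedom, and probe sets near the limit carry little signal over background. The comparisons were paired through the block, which was the cell line for the transfections and the transfection for the lines. Each group is 1 array, so no replicate pairs exist within a line. Without a block 0 members and 0 of 16397 probe sets were called in the transfection comparisons. Between the lines 70 members were then called, against 66.8% of all probe sets. Leaving out each array in turn gave 58 to 71 members called between the lines, against 60% to 67% of all probe sets. In the 3 transfection comparisons it gave 0, where 0 of 16397 probe sets were called to begin with, so this says nothing about stability. Of 111 alternatives of the counts and medians, 81 stayed close to the reported value, and the cause was not tested for the others. Close meant within 1.5 times for a count, and for a median within the SD of the member median over the 2 lines (0.0551). Many of the 81 are limma counts of 0 in the transfection comparisons, so the tally is not a measure of stability. The U-2OS median of 0.01 had the other sign under the all-arrays filter, no filter and median centring (-0.01 each). For the 7 probe sets beyond 0.5 in both lines, 86 of 89 alternatives kept direction and side of the threshold, and 3 passed it (SRSF6, HNRNPD and SF3B2). These 7 were chosen by the same differences, and several alternatives cannot change the difference itself. The count of 86 therefore says nothing about stability.

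With the variance prior that follows the level, limma called 3 of 118 members against nonspecific siRNA (against 1.29% of all probe sets). It called 7 against untransfected cells (against 3.5% of all). Keeping only probe sets above the limit on all arrays gave 3 of 99 members called against untransfected cells, against 1.97% of all 11513 probe sets. These were SRSF6 and HNRNPD at a limma adjusted p of 0.0311 and SRSF10 225348_at at 0.0339. That filter put 1 KHOS and 3 U-2OS members beyond 3 SD. The member share was below that of all probe sets in KHOS and above it in U-2OS. It also left 1 higher by over 0.5 in both lines (1.01%, against 1.4% of all) and 2 disagreeing genes in KHOS. With no filter, 6 of 162 members in KHOS and 4 in U-2OS lay beyond 3 SD, 8 and 4 genes disagreed, and the KHOS median was 0.03. The shares of all probe sets beyond 3 SD and of all genes disagreeing rose as well. The member share beyond 3 SD was above that of all probe sets in KHOS and close to it in U-2OS. Quantile normalization run again put 1 member beyond 3 SD in KHOS, a smaller share than of all probe sets. An SD from the median absolute deviation put 4 in KHOS and 6 in U-2OS, and a threshold of 2 SD put 7 and 6. With these 2 settings the shares of all probe sets rose as well, and the member shares stayed close to them. These counts therefore do not set the splicing genes apart. With untransfected cells as control there were 2 beyond 3 SD in U-2OS, a share close to that of all probe sets. Lower by over 0.5 were 5 (4.24%, against 4.48% of all). In U-2OS 5 genes disagreed, a larger share than of all genes, and the median was -0.05. The brightest probe set per gene left 0 higher by over 0.5 and 31 of 46 genes called between the lines, against 71.7% of all 8878. When over 1 log2 unit was also asked for, a setting chosen after seeing the data, 28 of the 118 members were called between the lines. At 1 log2 unit, 0 were higher and 0 lower in both lines, against 40 and 68 of 16397 probe sets. A span over 0.5 gave 10 disagreeing genes in KHOS and 12 in U-2OS. The shares of all genes rose as well but stayed below those of the members. Asking for 1 probe set above 0.5 and another below -0.5 gave 1 and 0.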
